A study of Rattus norvegicus with 12 samples.

Results

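The adrenergic receptors described here are 6 genes, taken by gene name from the 22431 genes of the expression table: Adra1a, Adra1b, Adra1d, Adra2a, Adra2c and Adrb1. Each name matched 1 row, and all 6 were among the 14170 genes tested. The table holds poly(A) RNA from the prefrontal cortex of 12 wild-type rats in early adolescence, with 1 library per animal. Postnatal oxycodone (PNO), in utero oxycodone (IUO) and the control, Saline, have 4 animals each. Oxycodone is an opioid agonist, and the labels give 15 mg/kg by oral gavage, either before pregnancy or after it up to postnatal day 21, without tying a window to a group. The 4 animals of a group were offspring of 2 dams, 2 from each. Which animals are littermates is not recorded, and dam could not enter the models, so the p values may be too small. The labels record neither strain nor sex.

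Adrenergic receptors are G protein-coupled receptors for noradrenaline and adrenaline. In the cortex their noradrenaline comes from axons of the locus coeruleus, a brainstem nucleus whose firing follows arousal and which carries opioid receptors itself. The alpha-1 receptors act through Gq and phospholipase C, the alpha-2 receptors through Gi/o to lower cyclic AMP, and the beta receptors through Gs to raise it. In the prefrontal cortex of rodents and monkeys, alpha-2A receptors on pyramidal cell spines are known for strengthening working memory, while alpha-1 and beta-1 receptors are engaged at the higher noradrenaline release of stress.

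Upstream sequence is shown for Adrb1 and Adra2c, because their levels are set beside markers of neighbouring brain regions further on. The 250 bases before the annotated start come from RefSeq on the rat build GRCr8, read 5′ to 3′ on the gene's strand. The RefSeq promoter table matched 5 of the 6 genes, and Adra1a was the exception. The searched motifs were the GC box GGGCGG, the half-site TGACG of the cyclic AMP response element and the TATA box TATAAA, on both strands. None of these overlapped another in the sequences shown, and capitals mark every match. Adrb1 lies at chr1:265776853-265777102 on the plus strand and Adra2c at chr14:79697477-79697726 on the minus strand.
Adrb1: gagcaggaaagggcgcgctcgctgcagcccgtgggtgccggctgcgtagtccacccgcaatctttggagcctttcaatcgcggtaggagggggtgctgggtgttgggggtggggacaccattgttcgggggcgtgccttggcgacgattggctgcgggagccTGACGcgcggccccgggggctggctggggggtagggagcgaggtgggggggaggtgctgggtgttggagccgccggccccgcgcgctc
Adra2c: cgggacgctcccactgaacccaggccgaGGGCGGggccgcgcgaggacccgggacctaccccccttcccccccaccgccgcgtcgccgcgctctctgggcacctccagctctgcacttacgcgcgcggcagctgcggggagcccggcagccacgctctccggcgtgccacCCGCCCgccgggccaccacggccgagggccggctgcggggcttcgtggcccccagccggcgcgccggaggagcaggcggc

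Adrb1 held 1 half-site of the cyclic AMP response element, a motif present in 18.2% of the 33469 promoters of the same length. Adra2c held 2 GC boxes, a motif with at least 1 match in 30.5% of them. These shares are over all such promoters and are not matched for G and C content. In Adra1b, Adra1d and Adra2a 0 matches to the 3 motifs were found in this window. The G and C content of the 5 windows ran from 64.0% in Adra1d to 80.4% in Adra2c.

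Levels between genes were compared in FPKM (fragments scaled to transcript length and library size), the scale that takes gene length into account. Adra1d was the most abundant receptor transcript at 16.5 ± 3.87 FPKM (SD, n = 12 libraries). It was followed by Adra2c at 13.6 ± 2.44 FPKM and Adra1b at 12.7 ± 2.74 FPKM. Adra2a and Adrb1 formed a lower pair at 5.69 ± 0.896 FPKM and 5.39 ± 0.437 FPKM, and Adra1a was lowest at 0.804 ± 0.179 FPKM. Among the 14170 tested genes these means stood at percentiles from 7.06 for Adra1a to 74.7 for Adra1d.

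Neighbours within the upper 3 and within the lower pair did not separate. Adra1d exceeded Adra2c in 8 of 12 libraries, Adra2c exceeded Adra1b in 6 of 12, and Adra2a exceeded Adrb1 in 7 of 12. The steps between these tiers held in every library: Adra1b exceeded Adra2a in 12 of 12, and Adrb1 exceeded Adra1a in 12 of 12. Rescaling each library's FPKM to TPM , which gives every library the same sum, kept the same order.

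**Figure D1:**
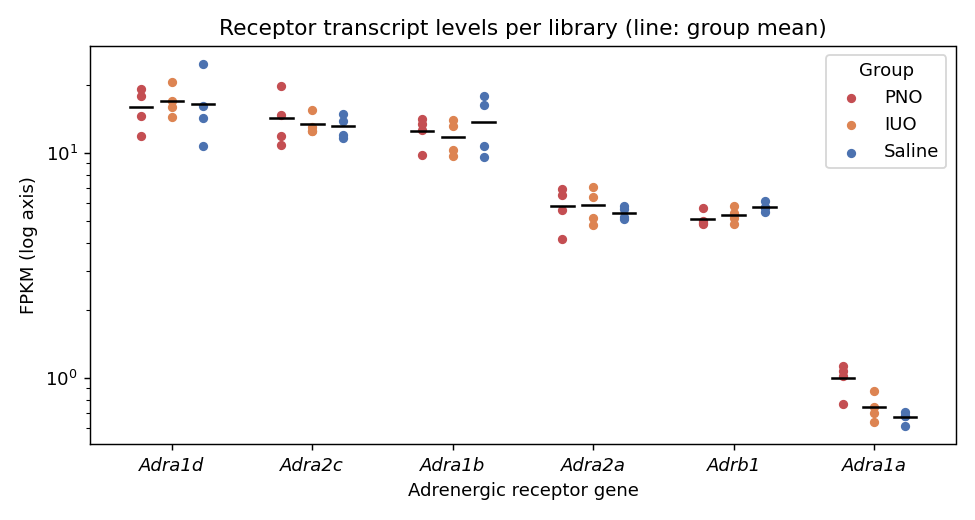
Level of each adrenergic receptor gene in FPKM on a log axis, genes from highest to lowest mean, each point 1 library of PNO, IUO or Saline and each line a group mean. Adra1d, Adra2c and Adra1b lie between 9.64 and 24.8 FPKM, Adra2a and Adrb1 between 4.14 and 7.09 FPKM, and Adra1a between 0.612 and 1.13 FPKM.

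The shares of the receptor classes were compared next. The 3 alpha-1 genes made up 53.7% ± 7.09 of the summed FPKM of the 6 receptors in PNO, 54.5% ± 5.07 in IUO and 55.0% ± 8.02 in Saline (SD, n = 4 each). The pair of alpha-2 genes made up 36.9% ± 6.13 in PNO, 35.7% ± 4.49 in IUO and 34.3% ± 6.02 in Saline. Adrb1 made up 9.36% ± 1.04 in PNO, 9.80% ± 0.950 in IUO and 10.7% ± 2.06 in Saline. The ranges of all 3 groups overlapped in each class.

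The libraries differed in depth and in markers of neighbouring tissue. Total counts ran from 49227533 to 60672246. Markers of cortical glutamatergic neurons, 6 of 6 in the table, had a mean log2 CPM (counts scaled to library size, on the log2 scale) of 6.70 to 6.85 in PNO, 6.60 to 6.91 in IUO and 6.68 to 6.997 in Saline. The 12 striatal markers were raised by more than 0.5 over the median of all libraries in PNO 2 (6.48), IUO 2 (5.98), IUO 1 (4.84) and Saline 2 (4.63), against 3.43 to 3.56 in the other 8. The 6 olfactory bulb markers were raised in PNO 1 (3.55), PNO 3 (3.53), PNO 4 (3.95) and IUO 3 (4.16), against 0.523 to 1.28 in the other 8. No marker of either list was at 0 in all libraries. Summed over the list, striatal markers ran from 325 to 2089 CPM in PNO, 356 to 1615 CPM in IUO and 328 to 712 CPM in Saline. Bulb markers ran from 27.6 to 193 CPM in PNO, 16.7 to 219 CPM in IUO and 24.2 to 33.6 CPM in Saline. Choroid plexus markers summed to 3.42 to 4.06 CPM in PNO, 3.27 to 212 CPM in IUO, the highest in IUO 2, and 1.54 to 20.97 CPM in Saline. Meningeal markers summed to 131 to 391 CPM in PNO, 109 to 170 CPM in IUO and 123 to 208 CPM in Saline. The mean log2 CPM of 4 Y-linked genes was 2.26 to 2.64 in PNO 2, PNO 3, IUO 3, Saline 1 and Saline 3, and -2.94 to -1.41 in the other 7. The part of these markers in the receptor values was not tested.

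The first comparison set postnatal exposure against the control. Of the 6 genes, 0 passed an adjusted p of 0.05 in PNO against Saline (edgeR quasi-likelihood test, Benjamini-Hochberg over all genes), where the share of all genes called was 0%. DESeq2 called 0 of the 6 and 0.826% of all genes. At an unadjusted p under 0.05 edgeR gave 2 of the 6, Adra1a with a higher and Adrb1 with a lower level in PNO, beside 1564 genes or 11.0% of all, 6.82% higher and 4.22% lower. Adra1a was the 1 receptor whose groups did not overlap, with all PNO libraries above all Saline libraries, as for 5.17% of all genes. The log2 fold change was positive in 3 of the 6 and negative in 3, with a median of -0.01. Over all genes 51.2% were positive and the median was 0.01.

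The second comparison set in utero exposure against the control. There 0 of the 6 passed in edgeR, where 0% of all genes did, and DESeq2 called 0 of the 6 and 0.0776% of all genes. At an unadjusted p under 0.05 edgeR gave 0 of the 6, beside 4.02% of all genes. All 6 overlapped between the groups, while 2.18% of all genes did not. The sign was positive in 4 and negative in 2, with a median of 0.01. Over all genes 56.4% were positive and the median was 0.02.

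The third comparison set the exposure windows against each other and so tested whether they differed. In IUO against PNO 0 of the 6 passed in edgeR, with 0% of all genes called, and DESeq2 called 0 of the 6 and 0.0565% of all genes. At an unadjusted p under 0.05 edgeR gave 1 of the 6, Adra1a, which was lower in IUO, beside 6.73% of all genes, with 3.06% lower in IUO. The sign was positive in 3 of the 6 and in 50.8% of all genes. All 6 overlapped between the groups, while 3.63% of all genes did not. The PNO and IUO comparisons share their Saline animals, so the values of each are given side by side below and no correlation between them was taken.

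**Figure D2:**
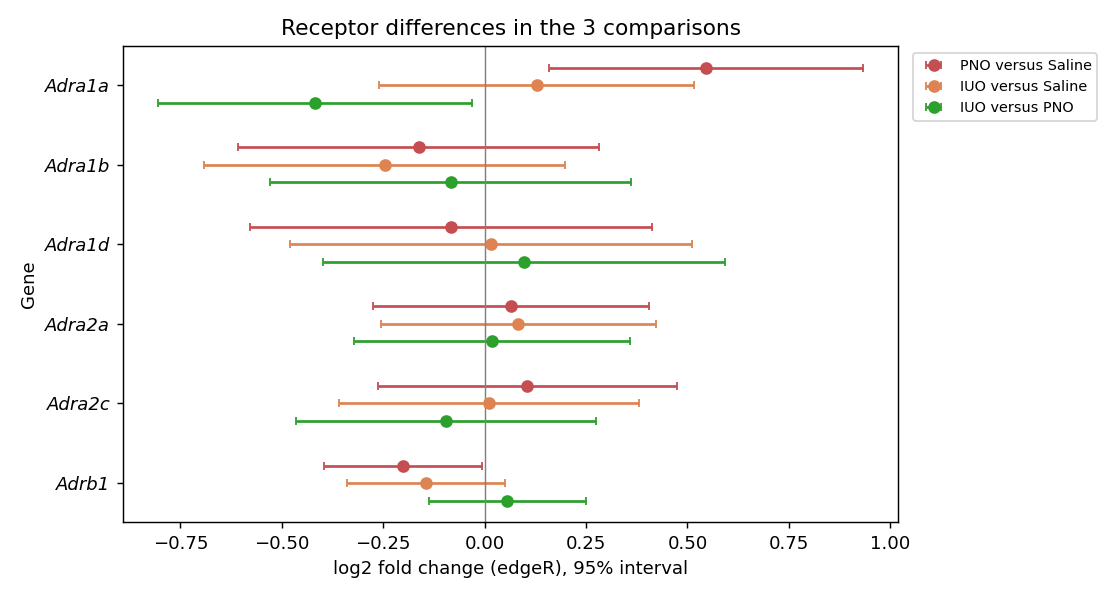
edgeR log2 fold change of each receptor with its 95% interval in PNO versus Saline, IUO versus Saline and IUO versus PNO. Every interval holds 0 except those of Adra1a in PNO versus Saline (0.16 to 0.93) and in IUO versus PNO (-0.80 to -0.03) and that of Adrb1 in PNO versus Saline (-0.39 to -0.01), and none of these passed after adjustment over all genes.

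Adra1a encodes the alpha-1A receptor, a Gq-coupled receptor of interneurons and oligodendrocyte precursors among other cells in rodent cortex (ENSRNOG00000009522, chromosome 15, 40832534 to 40927500, plus strand; positions are the deposited table's, whose build is not given in the sources used here). It measured 3.17, 3.10, 2.31 and 3.41 CPM in PNO 1 to 4. In IUO 1 to 4 it measured 2.10, 2.26, 1.93 and 2.69 CPM, and in Saline 1 to 4 it measured 2.04, 2.04, 1.91 and 2.22 CPM. All 4 PNO libraries lay above the highest Saline library, PNO 3 by the least, while the IUO libraries spread across the Saline range and above it.

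The mean of Adra1a was 3.00 ± 0.475 CPM in PNO, 2.25 ± 0.324 CPM in IUO and 2.05 ± 0.129 CPM in Saline (SD, n = 4 each). Its log2 fold change was 0.55 (SE 0.18) in PNO against Saline, with an adjusted p of 0.355 in edgeR. In IUO against Saline it was 0.13 (SE 0.18, adjusted p = 0.998 in edgeR), and in IUO against PNO it was -0.42 (SE 0.18, adjusted p = 0.714 in edgeR). With 110 to 201 counts per library, the counting error of Adra1a was about 8.44% of its level, against 21.6% for the spread over the 12 libraries.

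Adra1a measured 1.93 to 3.41 CPM in the 4 bulb-raised libraries, with a median of 2.74 CPM, and 1.91 to 3.10 CPM in the other 8, with a median of 2.16 CPM. PNO 2, the PNO library without raised bulb markers, had 3.10 CPM, and IUO 3, which had the highest bulb mean, had 1.93 CPM. The fold change of Adra1a in PNO against Saline was 0.58 without the 4 bulb-raised libraries, which leaves 1 PNO library, and 0.53 without the 4 striatal-raised ones. Each PNO library had raised striatal or bulb markers, so neither value compares PNO libraries free of both with Saline. GABAergic neuron markers, 5 of 6 in the table, also lay higher in every PNO library than in any Saline library. They summed to 586 to 612 CPM in PNO, 556 to 665 CPM in IUO and 442 to 567 CPM in Saline, and their part in the Adra1a values was not tested. Taken singly, 5.17% of all genes lay higher in every PNO library than in any Saline library. Markers of oligodendrocyte precursors, 4 of 4 in the table, summed to 183 to 245 CPM in PNO, 199 to 269 CPM in IUO and 198 to 244 CPM in Saline. In tissue RNA, a change in the number of cells, a change in RNA per cell and a difference in neighbouring tissue cannot be told apart.

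Adra1b encodes the alpha-1B receptor, also Gq-coupled (ENSRNOG00000060087, chromosome 10, 28255025 to 28312919, minus strand). It measured 35.3, 26.5, 34.0 and 38.1 CPM in PNO 1 to 4. The IUO libraries had 35.1, 26.0, 37.3 and 27.9 CPM, and the Saline libraries 25.7, 28.7, 49.8 and 45.8 CPM. The Saline group itself held both the lowest level, in Saline 1, and the highest, in Saline 3, so the exposed groups lay within it.

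Adra1b had a log2 fold change of -0.16 (SE 0.21, 95% interval -0.61 to 0.28, adjusted p = 0.789 in edgeR) in PNO against Saline. Its IUO value against Saline was -0.25 (SE 0.21, 95% interval -0.69 to 0.20, adjusted p = 0.998 in edgeR). Without Saline 3 the PNO value was 0.0046. The 2 Saline libraries with low Adra1b had a mean log2 CPM of mature oligodendrocyte markers (6 of 6 in the table) of 9.53 and 9.95, against 9.10 and 9.33 in Saline 3 and Saline 4. Their cortical glutamatergic mean was 6.72 and 6.68, against 6.997 and 6.92. The 2 pairs of Saline libraries were set by their Adra1b level, and Saline 2 also had raised striatal markers. IUO 1 had an oligodendrocyte mean of 9.97 and 35.1 CPM of Adra1b. IUO 4 had 9.36 and 27.9 CPM, opposite to the Saline order. IUO 2 (10.35, 26.0 CPM) and IUO 3 (9.08, 37.3 CPM) followed that order. So did PNO 2, with the highest PNO mean, 10.01, and the lowest PNO level, 26.5 CPM. The part of these markers in the spread of Adra1b was not tested.

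Adra1d encodes the alpha-1D receptor, the third Gq-coupled member (ENSRNOG00000021256, chromosome 3, 118793346 to 118809354, minus strand). It measured 60.2, 38.2, 57.4 and 46.6 CPM in PNO 1 to 4. The IUO libraries had 53.7, 45.9, 50.5 and 66.5 CPM, and the Saline libraries 34.0, 45.0, 52.9 and 82.4 CPM. As with Adra1b, the lowest and the highest of the 12 libraries were both Saline animals. The coefficient of variation of Adra1d within Saline was 38.7% and that of Adra1b 32.2%, against 20.0% and 14.9% within PNO and 16.3% and 17.3% within IUO.

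The log2 fold change of Adra1d was -0.08 (SE 0.23, 95% interval -0.58 to 0.41, adjusted p = 0.919 in edgeR) in PNO against Saline and 0.02 (SE 0.23, 95% interval -0.48 to 0.51, adjusted p = 0.998 in edgeR) in IUO against Saline. Without Saline 4 these values were 0.19 and 0.29. Both intervals span differences of either sign.

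Adra2a encodes the Gi/o-coupled alpha-2A receptor, the main alpha-2 receptor of prefrontal pyramidal neurons and an autoreceptor of noradrenergic axons (ENSRNOG00000047545, chromosome 1, 253060218 to 253064365, plus strand). It measured 27.7, 18.1, 24.4 and 30.0 CPM in PNO 1 to 4. The IUO libraries had 22.1, 27.7, 30.6 and 20.9 CPM, and the Saline libraries 24.97, 22.3, 25.3 and 23.1 CPM. The Saline libraries stood close together, and both exposed groups reached above and below them.

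In PNO against Saline the log2 fold change of Adra2a was 0.07 (SE 0.16, 95% interval -0.27 to 0.41, adjusted p = 0.905 in edgeR). The IUO value against Saline was 0.08 (SE 0.16, 95% interval -0.26 to 0.42, adjusted p = 0.998 in edgeR). Adra2a measured 24.4 to 30.6 CPM in the 4 bulb-raised libraries, with a median of 28.9 CPM, and 18.1 to 27.7 CPM in the other 8, with a median of 22.7 CPM. Without the bulb-raised libraries the fold changes were -0.42 in PNO, which then had 1 library, and -0.04 in IUO.

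Adra2c encodes the alpha-2C receptor, a Gi/o-coupled receptor that is abundant in rodent striatum (ENSRNOG00000009299, chromosome 14, 75471143 to 75472846, minus strand). It measured 21.4, 36.9, 27.2 and 20.0 CPM in PNO 1 to 4. The IUO libraries had 22.9, 28.7, 23.9 and 23.4 CPM, and the Saline libraries 21.3, 27.3, 26.3 and 23.1 CPM. The highest library of each group, PNO 2, IUO 2 and Saline 2, was the one with the highest striatal markers of that group.

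In PNO against Saline the log2 fold change of Adra2c was 0.11 (SE 0.17, 95% interval -0.26 to 0.48, adjusted p = 0.838 in edgeR). It was -0.10 without PNO 2 and -0.04 without the 4 striatal-raised libraries. Against Saline, IUO gave 0.01 (SE 0.17, 95% interval -0.36 to 0.38, adjusted p = 0.998 in edgeR). Adra2c ran from 22.9 to 36.9 CPM in the striatal-raised libraries, with a median of 28.0 CPM, and from 20.0 to 27.2 CPM in the other 8, with a median of 23.2 CPM. IUO 1, with raised striatal markers, had 22.9 CPM, inside the range of the other 8.

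Adrb1 encodes the beta-1 receptor, which couples to Gs and is the main beta receptor of forebrain neurons (ENSRNOG00000017002, chromosome 1, 255771597 to 255807259, plus strand). It measured 25.1, 29.4, 24.9 and 24.98 CPM in PNO 1 to 4. The IUO libraries had 26.0, 29.7, 24.7 and 28.1 CPM, and the Saline libraries 29.3, 31.1, 30.1 and 29.4 CPM. Of the PNO libraries 3 lay below every Saline library and PNO 2 lay just above the 2 lowest of them. IUO libraries covered the span from the lowest library of all into the Saline range.

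Adrb1 averaged 26.1 ± 2.20 CPM in PNO, 27.1 ± 2.18 CPM in IUO and 30.0 ± 0.851 CPM in Saline (SD, n = 4 each), and it was the least variable of the 6 over the 12 libraries, with a coefficient of variation of 8.67%. The log2 fold change was -0.20 (SE 0.09, adjusted p = 0.446 in edgeR) in PNO against Saline and -0.14 (SE 0.09, adjusted p = 0.998 in edgeR) in IUO against Saline. Between IUO and PNO it was 0.06 (SE 0.09, 95% interval -0.14 to 0.25, adjusted p = 0.879 in edgeR).

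Adrb1 was lowest in the libraries with raised olfactory bulb markers. The 4 bulb-raised libraries, PNO 1, PNO 3, PNO 4 and IUO 3, held 24.7 to 25.1 CPM of Adrb1, below all of the other 8 at 26.0 to 31.1 CPM. The other receptors overlapped between these sets of libraries. What share of all genes splits them without overlap was not computed, so how common such a split is remains unknown. Without those 4 libraries the fold change was -0.04 in PNO against Saline, resting on PNO 2 alone, and -0.12 in IUO against Saline. With the striatal and bulb marker means as covariates it was -0.13 and -0.14. All 4 Saline libraries had low bulb markers, and the part of the bulb markers in the PNO value was not tested beyond these values.

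**Figure D3:**
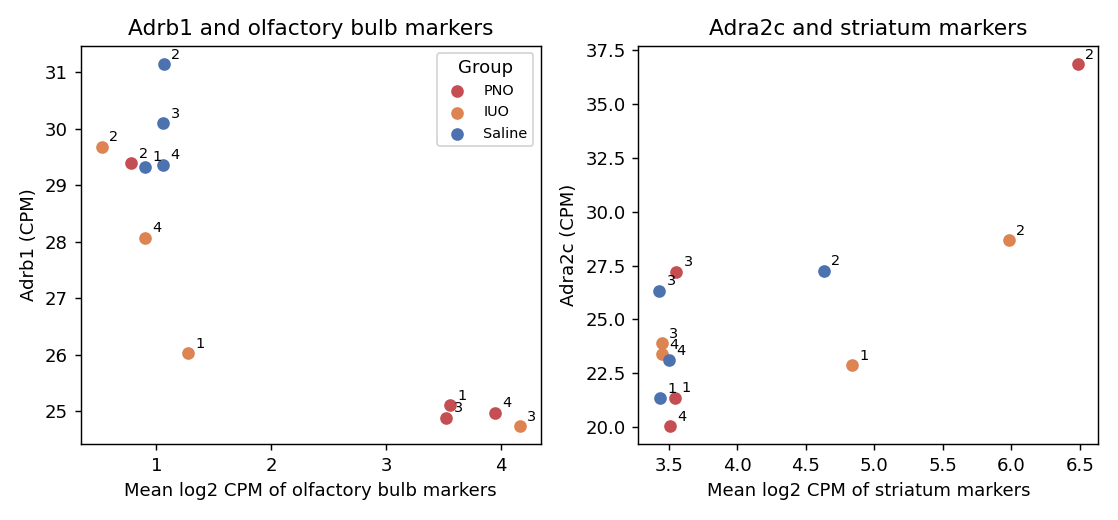
Left, Adrb1 in CPM against the mean log2 CPM of 6 olfactory bulb markers. Right, Adra2c in CPM against the mean log2 CPM of 12 striatal markers. Each point is 1 library, numbered by replicate and coloured PNO, IUO or Saline. The 4 libraries with bulb means of 3.53 to 4.16 hold the 4 lowest Adrb1 levels, and PNO 2, with the highest striatal mean, holds the highest Adra2c level.

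**Figure D4:**
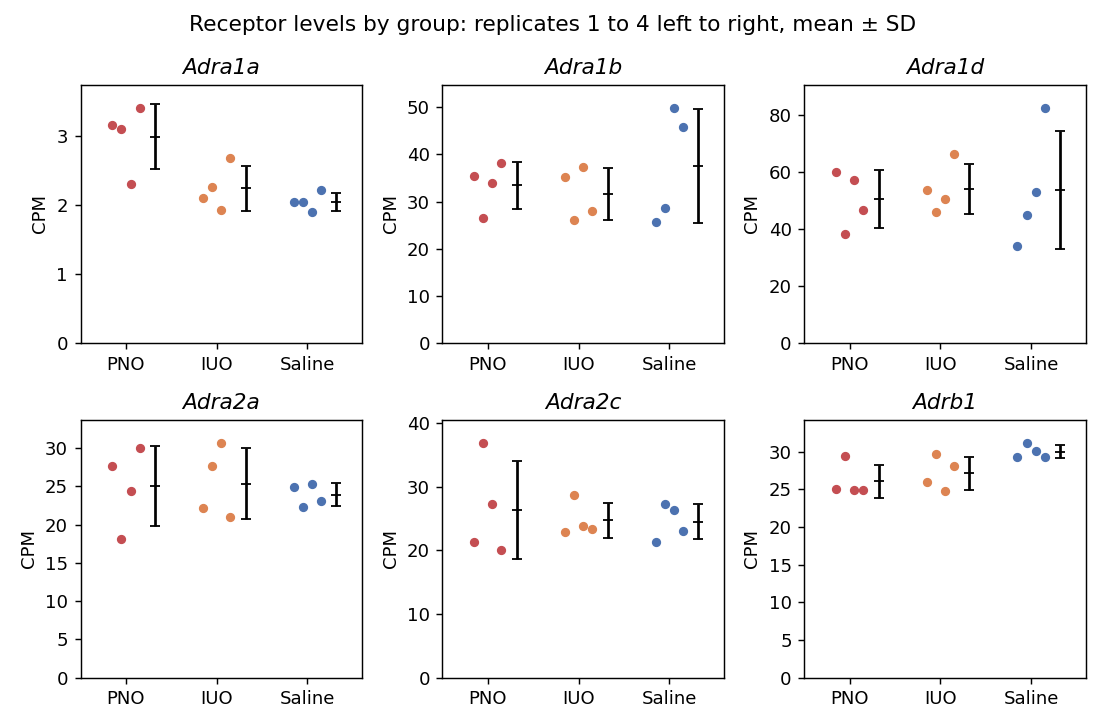
CPM of each receptor by group in the order PNO, IUO, Saline, with replicates 1 to 4 from left to right as points and the mean ± SD (n = 4) as a black bar. Adra1a separates PNO from Saline, Adra1b and Adra1d are widest within Saline, and 3 of 4 PNO libraries of Adrb1 lie below the Saline libraries.

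Variation shared between receptors was examined in pairs across the 12 libraries. Of the 15 pairs, 0 passed after Benjamini-Hochberg adjustment (permutation test of Pearson's r and of Spearman's rho, 100000 resamples, two-sided). Adra1b and Adra1d had the largest positive r at 0.59 (permutation p = 0.0453, adjusted p = 0.409) and a rho of 0.54 (permutation p = 0.0753, adjusted p = 0.664). Their r was 0.61 without the 2 libraries farthest from the median of Adra1b and 0.64 with group means subtracted. Adra2a and Adra2c had the largest negative r at -0.57 (permutation p = 0.0545, adjusted p = 0.409) with a rho of -0.29 (permutation p = 0.352, adjusted p = 0.664), and -0.23 without the 2 libraries farthest from the median of Adra2a. With group means subtracted it was -0.58. Adra2c and Adrb1 had an r of 0.45 (permutation p = 0.140, adjusted p = 0.525) and a rho of 0.48 (permutation p = 0.116, adjusted p = 0.664). Their r was 0.35 without 2 libraries chosen in the same way and 0.76 with group means subtracted, the largest such value of the 15. Adra2a and Adrb1 had an r of -0.49 (permutation p = 0.104, adjusted p = 0.518) and a rho of -0.37 (permutation p = 0.237, adjusted p = 0.664). Their r was -0.34 without 2 libraries and -0.60 with group means subtracted. Adra1a and Adra2a had an r of -0.07 (permutation p = 0.831, adjusted p = 0.984) and a rho of -0.11 (permutation p = 0.732, adjusted p = 0.783). Their r was -0.18 with group means subtracted and -0.75 without the 2 libraries farthest from the median of Adra1a.

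For each receptor the 3 tested genes with the highest Pearson's r of log2 CPM over the 12 libraries were taken as the most alike, out of 14170, as a description with no test. For Adra1a these were Akap12, a scaffold that binds protein kinase A (r 0.89, rho 0.84), Srpk1, a kinase of splicing factors (r 0.86, rho 0.78), and the collagen gene Col4a5 (r 0.84, rho 0.80). For Adra1b they were the ephrin receptor gene Ephb6 (r 0.95, rho 0.86), the microtubule affinity kinase gene Mark4 (r 0.93, rho 0.90) and the acyltransferase gene Agpat1 (r 0.92, rho 0.84). For Adra1d they were the acetyltransferase gene Kat5 (r 0.92, rho 0.93), Fsd1 (r 0.90, rho 0.88) and Ecsit (r 0.88, rho 0.80).

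For Adra2a the most alike were the semaphorin gene Sema4b (r 0.87, rho 0.83), the ubiquitin ligase gene Rnf115 (r 0.82, rho 0.78) and Msantd2 (r 0.82, rho 0.83). For Adra2c they were Rem2, a small GTPase (r 0.92, rho 0.81), the plakophilin gene Pkp1 (r 0.91, rho 0.87) and the peptidase gene Ecel1 (r 0.89, rho 0.75). For Adrb1 they were the ubiquitin-conjugating enzyme gene Ube2w (r 0.87, rho 0.84), the sulfotransferase gene Sult1d1 (r 0.86, rho 0.80) and the mitochondrial carrier gene Slc25a14 (r 0.85, rho 0.78). Libraries of all 3 groups enter these values, and raised striatal or bulb markers are shared by some of them.

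The other genes of the noradrenergic pathway were read from 5 lists. Of the genes that make, carry and break down noradrenaline, 8 of 11 were tested. Dbh, whose enzyme turns dopamine into noradrenaline, had 13 to 108 counts per library. Slc6a2, the noradrenaline transporter gene, had 0 to 8, and Pnmt, whose enzyme makes adrenaline, had 0 to 10. All 3 were below the filter of a mean of 0.5 FPKM. The cell bodies that express the first 2 lie in the brainstem and not in the cortex.

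Of those 8 tested genes 0 passed in edgeR in any of the 3 comparisons. At an unadjusted p under 0.05, 2 were lower in PNO and 1 in IUO against Saline, and 1 was higher in IUO than in PNO. The shares of all genes at that p, in either direction, were 11.0% in PNO against Saline, 4.02% in IUO against Saline and 6.73% in IUO against PNO, and they apply beside the other 4 lists too. In PNO against Saline 4 were positive and 4 negative in sign, with a median log2 fold change of -0.06. Ddc, the decarboxylase that forms dopamine and serotonin, measured 3.27 ± 0.690 CPM in PNO and 5.43 ± 0.523 CPM in Saline, a log2 fold change of -0.73 (SE 0.18, adjusted p = 0.305 in edgeR). Its libraries measured 2.45 to 3.99 CPM in PNO and 5.04 to 6.16 CPM in Saline, without overlap. The share of all genes lying lower in every PNO library than in any Saline library is not given here. At an unadjusted p under 0.05 in edgeR, 4.22% of all genes were lower in PNO. DESeq2 called Ddc lower (adjusted p = 0.0249), where it called 0.826% of all genes in either direction. In IUO Ddc averaged 5.38 ± 0.743 CPM, 0.72 above PNO on the log2 scale (SE 0.18, adjusted p = 0.714 in edgeR).

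The monoamine oxidases, which break down noradrenaline, were next in order of p. Maob measured 49.4 ± 10.3 CPM in PNO, 44.6 ± 5.27 CPM in IUO and 63.3 ± 10.9 CPM in Saline, and its log2 fold change in IUO was -0.51 (SE 0.16, adjusted p = 0.998 in edgeR). All 4 IUO libraries of Maob, at most 49.4 CPM, lay below all Saline libraries, at least 52.2 CPM. Between these groups 2.18% of all genes did not overlap, in either direction. Maoa measured 39.4 ± 3.37 CPM in PNO, 39.4 ± 3.40 CPM in IUO and 45.4 ± 5.39 CPM in Saline. Th, the first enzyme of the pathway, measured 8.01, 6.56, 7.53 and 19.9 CPM in the bulb-raised libraries PNO 1, PNO 3, PNO 4 and IUO 3, against 1.85 to 3.97 CPM in the other 8. For this split too, the share of all genes was not computed. Th is also known as a marker of olfactory bulb dopamine neurons in rodents.

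Of the Gq arm used by alpha-1 receptors, 12 of 13 genes were tested and 0 passed in edgeR in any comparison. The median log2 fold change was 0.06 in PNO and 0.10 in IUO against Saline, with 9 positive and 3 negative signs in each. Counts at an unadjusted p under 0.05 were 0 in PNO against Saline, 1 lower in IUO than in Saline, and 1 higher and 1 lower in IUO than in PNO. Itpr3, an inositol trisphosphate receptor gene, measured 8.35 ± 1.49 CPM in PNO and 6.03 ± 1.17 CPM in Saline (adjusted p = 0.499 in edgeR).

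Of the Gi/o arm used by alpha-2 receptors, 12 of 13 genes were tested and 0 passed in edgeR in any comparison, with 0 at an unadjusted p under 0.05 in each. The median was 0.15 in PNO against Saline, 0.03 in IUO against Saline and -0.08 in IUO against PNO. Cacna1a, the pore subunit of P/Q-type calcium channels, had the smallest p in PNO, at 212 ± 9.42 CPM in PNO and 185 ± 10.7 CPM in Saline (adjusted p = 0.457 in edgeR). Kcnj9, a subunit of G protein-gated potassium channels, had it in IUO, at 188 ± 12.4 CPM in IUO and 168 ± 30.8 CPM in Saline (adjusted p = 0.998 in edgeR).

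Of the Gs and cyclic AMP arm used by beta receptors, 19 rows were tested and 0 passed in edgeR in any comparison. The median log2 fold change was 0.16 in PNO against Saline, with 14 positive and 5 negative signs, and 0.03 in IUO against Saline, with 12 and 7. By unadjusted p under 0.05, 2 were higher and 1 lower in PNO than in Saline, 1 lower in IUO than in Saline and 1 lower in IUO than in PNO. The phosphodiesterase gene Pde4a, whose enzyme breaks down cyclic AMP, measured 48.9 ± 1.93 CPM in PNO and 36.4 ± 5.45 CPM in Saline (adjusted p = 0.439 in edgeR). A second phosphodiesterase gene, Pde4d, measured 7.35 ± 3.74 CPM in PNO and 4.47 ± 0.869 CPM in Saline (adjusted p = 0.452 in edgeR). Gnas has 2 overlapping rows in the table, so its reads may be split and its value is uncertain. The row with few reads measured 11.5 ± 1.70 CPM in PNO, 11.97 ± 2.06 CPM in IUO and 15.1 ± 0.875 CPM in Saline. That row is the 1 counted as lower in PNO and in IUO against Saline. The row with most of the reads measured 1343 ± 113 CPM in IUO and 1489 ± 160 CPM in Saline. Its log2 fold change against Saline was -0.04 in PNO and -0.15 in IUO (adjusted p = 0.907 and 0.998 in edgeR). Gnal and Adcy5, which encode the striatal Gs subunit and adenylate cyclase and were picked out after their values were seen, were highest in the striatal-raised library PNO 2, at 168 and 338 CPM.

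Of the genes that desensitise receptors, 9 of 11 names were in the table and tested, and 0 passed in edgeR in any comparison. The median was 0.04 in PNO and -0.09 in IUO against Saline. At an unadjusted p under 0.05, 1 was higher in PNO than in Saline and 0 passed in the other comparisons. Arrb1, which encodes beta-arrestin 1, measured 16.0 ± 3.97 CPM in PNO and 8.52 ± 1.78 CPM in Saline, a log2 fold change of 0.91 (SE 0.28, adjusted p = 0.346 in edgeR). All 4 PNO libraries, at 12.5 to 21.6 CPM, lay above all Saline libraries, at 6.82 to 10.5 CPM, as for 5.17% of all genes. In IUO Arrb1 measured 11.7 ± 4.65 CPM, and the highest of the 12 libraries was PNO 2, the one with the highest striatal markers. Rgs4, a regulator that shortens Gi/o and Gq signals, measured 408 ± 37.9 CPM in PNO, 478 ± 54.7 CPM in IUO and 474 ± 65.9 CPM in Saline (adjusted p = 0.516 in PNO against Saline, edgeR).

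**Figure D5:**
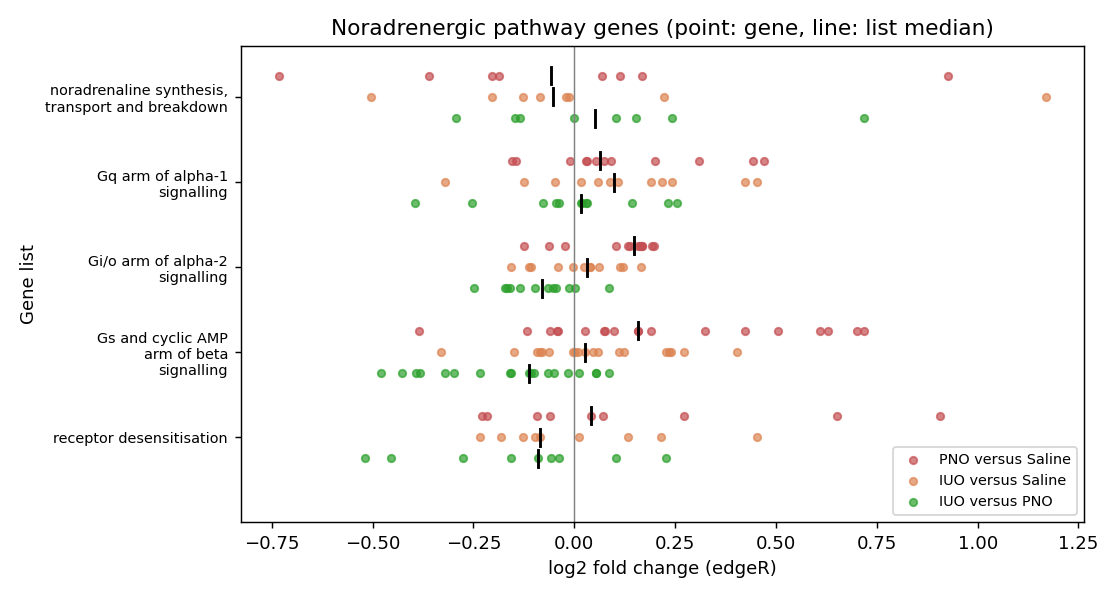
edgeR log2 fold changes of the tested genes of 5 noradrenergic pathway lists (one row of points per comparison: PNO versus Saline, IUO versus Saline, IUO versus PNO), each point 1 gene and each black line the list median. Medians lie between -0.11 and 0.16, and the outermost points are Ddc at -0.73 in PNO and Th at 1.17 in IUO, both against Saline.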

How the data were processed

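Poly(A) RNA of rat prefrontal cortex was sequenced after TruSeq stranded preparation, per the labels' protocols. HISAT2 and StringTie stand in the submitters' processing notes, and neither their versions nor the genome build and annotation could be read from the sources. The table deposited has counts (whole numbers per gene and library) and FPKM, both made by the authors, per the file headers. Total counts per library ran from 49227533 to 60672246.

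The filter was a 12-library mean of 0.5 FPKM or more, which 14170 of 22431 genes passed. Counts were scaled with TMM factors and fitted in 1 edgeR quasi-likelihood model with the 3 groups over all 12 libraries. Tests were two-sided, with Benjamini-Hochberg adjustment over all genes per comparison and a threshold of 0.05. CPM uses the TMM-scaled library sizes, and log2 CPM a prior count of 2. Standard errors of edgeR fold changes were derived from the fold change and the F statistic of its test. The 95% intervals were built from these errors and the t distribution. Alternatives were DESeq2, limma on log2 FPKM, other scaling, filters and pseudocounts, a block, marker covariates, a length trend and left-out libraries. Software was edgeR 4.0.16, DESeq2 1.42.0 and limma 3.58.1 in R 4.3.3, with figures from matplotlib 3.10.9 in Python 3.11.15.

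The members, lists, marker rules and tests were chosen with earlier results of these data known. The naming rule took all 6 receptors, in each pathway list the 3 genes of smallest unadjusted p per comparison (those with the smallest are given in the text) and the 3 genes most alike to each receptor. Not every gene the rule named is reported here.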

Additional observations from a re-analysis of the deposited data

Results flagged for a closer look

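Within PNO, PNO 2 stood apart in Adrb1: it measured 29.4 CPM, against 24.9 to 25.1 CPM in the other 3 PNO libraries, a gap of 0.953 of the range of the group. PNO 2 is the PNO library without raised bulb markers and with the highest striatal markers of the 12. Of the 18 sets of 4 libraries examined, 1 was singled out in this way. Chance does so for about 1 in 20 independent sets, and these sets are not independent, as they share the same 12 libraries.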

How the results depend on the processing

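In the 3 comparisons 0 of the 6 receptors passed under any of the 25 alternatives (24 for Adra1a, which a mean FPKM of at least 2 removes), and the smallest adjusted p of any receptor was 0.156, for Adra1a in PNO without IUO 4. Adra1a and Adrb1 kept their sign against Saline under all of them, at 0.25 to 0.80 and -0.27 to -0.04 in PNO. The count of all genes called in PNO against Saline, 0 in edgeR, was 117 in DESeq2, 1 in limma with a pseudocount of 0.5 and 1 with a pseudocount of 1, 11 with only the 2 groups fitted, 3 without the bulb-raised libraries and 0 to 19 without 1 library, the 19 without IUO 4. In IUO against Saline it was 11 in DESeq2, 4 without the striatal-raised and 1 without the bulb-raised libraries, and 0 to 1 without 1 library. In IUO against PNO it was 8 in DESeq2, 3 without the striatal-raised and 3 without the bulb-raised libraries, and 0 to 1 without 1 library.

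Of 447 receptor values, 412 kept their sign and 35 turned, and the cause was not tested. In PNO against Saline, the covariates gave Adra1d 0.25, Adra2a -0.30 and Adra2c -0.0016, leaving out bulb-raised libraries gave Adra2a -0.42, and leaving out striatal-raised ones gave Adra2c -0.044. In IUO against Saline, Adra2a was -0.066 with covariates and -0.037 without bulb-raised libraries. Adra2c was -0.10 with covariates, -0.0045 with no filter and -0.0022 with 2 groups. In IUO against PNO, covariates gave Adra1b 0.036 and Adrb1 -0.0057. Leaving out bulb-raised libraries gave Adra1b 0.17 and Adrb1 -0.074, and leaving out striatal-raised ones Adra2a -0.084 and Adra2c 0.047.

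Without 1 library, the ranges in PNO against Saline were -0.31 to 0.0046 for Adra1b, -0.25 to 0.19 for Adra1d, -0.044 to 0.19 for Adra2a and -0.10 to 0.21 for Adra2c. In IUO against Saline they were -0.15 to 0.29 for Adra1d, -0.022 to 0.16 for Adra2a and -0.068 to 0.067 for Adra2c. In IUO against PNO they were -0.016 to 0.18 for Adra1d, -0.11 to 0.12 for Adra2a and -0.20 to 0.11 for Adra2c.

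Animals share numbers across groups, but the labels do not pair them. Same-numbered libraries all correlated positively in their deviations from group means, at 0.0153 to 0.411. Most of them, though not all, correlated best with their own number. PNO 2, IUO 2 and Saline 2 also shared raised striatal markers. With the number as a block, Adra1a was 0.53 in PNO (adjusted p = 0.305 in edgeR) and 0 receptors and 0 genes passed in any comparison.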
